A study of Gallus gallus with 50 samples.

Results

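The libraries described here are the 8 GFP-positive libraries of chicken cranial cells at Hamburger-Hamilton stages 16 and 14 (HH16 and HH14), 5 labelled NC_16 and 3 labelled NC_14. They were taken by group label from the 42 libraries that the authors kept in their filtered table, of 50 deposited in all. Neural crest cells leave the dorsal neural tube, migrate into the head and the pharyngeal arches, and there form cartilage, bone and connective tissue of the face as well as neurons and glia of the cranial ganglia. TFAP2A is an early transcription factor of this lineage, and an enhancer of its gene drove the reporter by which the cells were sorted. The step from HH14 to HH16 was taken to run from late migration to settling and differentiation.

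Every embryo, at both stages and in both sorted fractions, had been electroporated whole with ptk-TFAP2AE1-GFP and incubated outside the egg at 37 °C, and the labels name no mutation, knockdown or drug. NC_16 and NC_14 therefore differ in stage alone by their labels, and WE_16 (5 libraries) and WE_14 (3 libraries) are the GFP-negative head cells of the same sorts. The sources state that around 20 dissected heads were pooled for each sample. A library is therefore taken as a pool of embryos and not 1 animal, with a reservation for some HH16 pools (chromosome W, below). The sort follows GFP and not the crest state itself, and a crest cell that took up no plasmid fell into the GFP-negative fraction. Where the head was separated from the trunk at each stage is not given in the sources used here. The labels do not say that the libraries of a group came from separate days or batches of embryos. The p-values therefore measure only the spread between libraries within the 12 groups of the 42 kept libraries, which may be technical. In such bulk samples fewer cells of a type and less RNA per cell cannot be told apart.

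Genes are given by Ensembl identifier, because neither the count tables nor the reference table used here pairs these identifiers with names. The label neural crest could for the same reason not be checked against crest markers or against markers of other head cells. At most 2 identifiers are given in each direction, and other genes are described by their number, position and level. Levels are CPM, read counts relative to a library size scaled by the trimmed mean of M values, and compare libraries for 1 gene rather than genes with each other.

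The 8 libraries held 12774586 to 23476403 counted reads. Across the 15737 tested genes, Pearson's r had a median of 0.920 between NC_16 libraries, where the pairs ran from 0.836 to 0.964. It had a median of 0.941 between NC_14 libraries, genes not being independent replicates. Between NC_16 and NC_14 libraries the median was 0.915, and the pairs ran from 0.843 to 0.945. Libraries of different stages were thus about as alike by r as NC_16 libraries among themselves. NC_16 replicate 3 stood apart, with 11128 genes at 10 or more reads, against 13177 to 13898 in the other NC_16 libraries and 13093 to 14013 in NC_14. It had no read for 27.4% of tested genes, and its median shift from the NC_14 mean over all tested genes was -0.50 on the log2 scale. Chromosome W, which in birds only females carry, took 23.4 and 26.4 CPM in NC_16 replicates 1 and 3. It took 1583 to 2201 CPM in the other 3 NC_16 libraries and 323 to 1900 CPM in NC_14. The GFP-negative libraries of the same pools (WE_16 replicates 1 and 3) had 23.2 and 23.7 CPM, against 1334 to 2293 CPM in the other WE_16 libraries. The labels give no sex, and whether these pools held few embryos or embryos of 1 sex was not tested. No NC_14 library was this low, so any difference in embryo sex is partly tied to stage. The share of reads from the mitochondrial genome was 4.73 ± 0.894% in NC_16 (SD, n = 5) and 5.68 ± 0.888% in NC_14 (SD, n = 3), with an exact two-sided permutation p of 0.232 where the smallest possible is 0.0179. Replicates 4 and 5 of NC_16 come from pools named 16_1_2 and 16_1, and the labels do not say whether these share embryos. They were the most alike NC_16 pair (r = 0.964) and share a sequencing set. The GFP-negative library of the pool named 16_1 (WE_16 replicate 5) reached at most 0.896 with any other WE_16 library. It had 12278 genes at 10 or more reads, against 13642 to 14439 in the other WE_16 libraries. No read was counted in it for 21.5% of tested genes. Whether the 2 pools are independent was not tested. Without the pool named 16_1, 369 genes passed the test described next, against 397 with it.

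From HH14 to HH16, 124 genes rose and 273 fell in GFP-positive cells, and together they were 2.52% of the 15737 tested genes (edgeR quasi-likelihood F test, Benjamini-Hochberg adjusted p under 0.05). The genes that rose were 0.788% of those tested and the genes that fell 1.73%. The median log2 fold change was 1.44 for the genes that rose and -2.07 for those that fell, against -0.02 over all tested genes. A change of over 8-fold was estimated for 19 of the genes that rose and 84 of those that fell, and of over 32-fold for 8 and 38. With the 4 genes that rose and 25 that fell from or to at most 3 reads set to the floor of 3 reads over the group, 27 of the genes that fell stayed over 32-fold, and the other counts and both medians did not move.

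The spread was estimated over the 12 groups of the 42 libraries, and the count depends on this. With the 8 libraries alone edgeR called 0 genes (1124 at an unadjusted p under 0.05), limma voom called 0 (1323 at an unadjusted p under 0.05) and DESeq2 called 289. In the joint fit, 19 genes rose and 112 fell without NC_14 replicate 1, 73 rose and 213 fell without NC_14 replicate 2, 51 rose and 169 fell without NC_14 replicate 3, and 73 rose and 170 fell without NC_16 replicate 4. The count was 26 higher and 40 lower over the 16 libraries of both fractions, 7 higher and 42 lower with all 50 libraries, 342 higher and 484 lower with DESeq2, and 340 higher and 541 lower with the sequencing set as a term. The 397 genes that passed had the same sign of their fold change in each of these fits that tested them. The fits reuse the libraries in which the genes were chosen, so that the shared sign is no separate support.

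**Figure D1:**
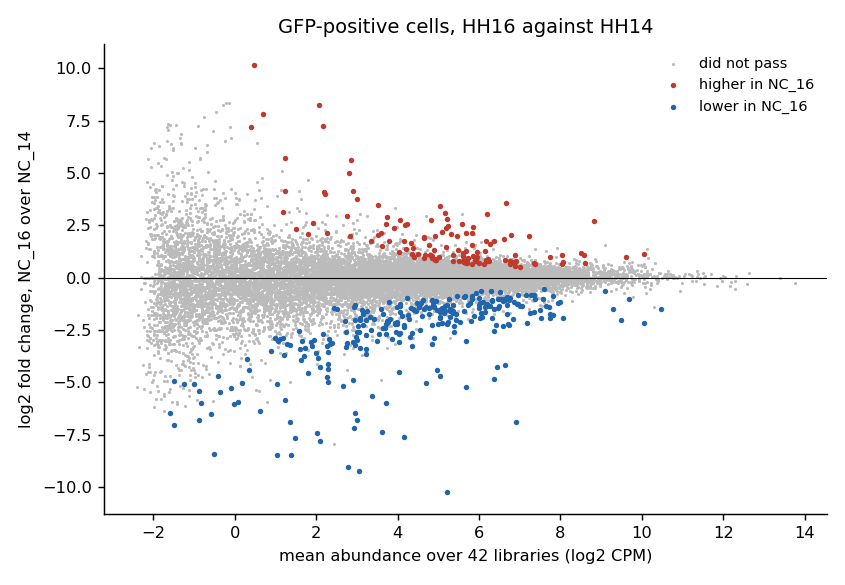
Log2 fold change of NC_16 over NC_14 (vertical) against mean abundance in log2 CPM over the 42 kept libraries (horizontal), 1 point per tested gene. The 124 genes that rose are red, the 273 that fell blue and the others grey. Most of the large changes lie at low abundance, and more blue than red points lie far from 0.

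Called genes were spread over the range of expression. When the tested genes were ranked by mean abundance and cut into 4 equal bins, 0.941% passed in the lowest bin and between 2.97% and 3.15% in the other 3. The median size of the log2 change among called genes was 5.28 in the lowest bin and 1.21 in the highest. The group with the higher mean is NC_16 for rises and NC_14 for falls. In it the mean was 100 CPM or more for 30.6% of the genes that rose (38) and 16.5% of those that fell (45). The share over all tested genes was 16.2%. At the other end, 83 of the genes that fell (30.4%) were under 1 CPM in NC_16, against 19.3% of all tested genes, and 25 of the genes that fell had at most 3 reads over all 5 NC_16 libraries. Of the genes that rose, 13 (10.5%) were under 1 CPM in NC_14, against 18.4% of all tested genes, and 4 had at most 3 reads over its 3 libraries.

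Together the genes that rose took 1.19% to 1.86% of the reads of each NC_16 library, against 0.549% to 0.744% in NC_14. The genes that fell took 0.465% to 0.775% in NC_16, against 1.59% to 2.12% in NC_14. Neither range overlaps that of the other stage, and the genes were chosen in these same libraries. Gene by gene, every NC_16 library was above every NC_14 library for 94 of the 124 that rose, where 3.02% of all tested genes show this, and below for 228 of the 273 that fell, where 4.84% of all tested genes do. The median shift of the genes that rose was 1.17 to 1.77 over the 5 NC_16 libraries on the log2 scale, and of those that fell -2.66 to -1.51. The lowest of these values for the genes that fell belongs to NC_16 replicate 3, the library with few detected genes. Without that library 405 genes passed, among them 95 of the 124 and 216 of the 273. Without the HH16 pools with under 50 CPM on chromosome W, 337 passed, among them 87 of the 124 and 138 of the 273.

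Libraries of both stages share the names of 3 sequencing sets in the library descriptions. In the set named HHTM3BGX5 the only NC_16 library is replicate 3, the library with few detected genes. Its description names a further set beside that one, so its reads may not all come from the set of its NC_14 partner. Over all tested genes the median log2 difference in HHTM3BGX5 was -0.29. Within each of the 3 shared sets NC_16 was higher than NC_14 for 109 of the 124 genes that rose, against 16.9% of all tested genes. It was lower for 265 of the 273 that fell, against 24.6%. Within the sets the median log2 difference was 0.99 to 1.59 for the genes that rose and -2.24 to -1.73 for those that fell, and -0.29 to 0.03 over all tested genes. A set holds 1 NC_14 library and 1 or 2 NC_16 libraries, and NC_16 replicate 1, from a set without NC_14, is left out. The genes were chosen for their difference in these same libraries, so that the shares within sets are a description.

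Genes were named among called genes that averaged 10 CPM or more in the group with the higher mean and whose groups did not overlap. The largest rise among them was that of ENSGALG00000054309, a gene of 5 exons on chromosome 2 (7989967 to 7999870, minus strand, GRCg6a). It had 1.77, 33.3, 51.4, 12.5 and 9.41 CPM in the 5 NC_16 libraries, against 0, 0.166 and 0.0409 CPM in the 3 NC_14 libraries. All 5 NC_16 libraries lay above NC_14, and they differed among themselves, replicate 1 being the lowest and replicate 3 the highest. The 3 reads in NC_14 set against 1673 in NC_16 give a ratio of 300.0 (exact binomial 95% interval 102 to 1456, which covers counting error only), and the fitted log2 fold change was 8.27 ± 1.46 (SE, edgeR adjusted p = 0.00206). No read of this gene was counted in GFP-positive cells at HH6, HH8 or HH10, and its mean at HH12 was 0.193 ± 0.224 CPM (SD, n = 4). In GFP-negative cells it stood at 11.6 ± 6.01 CPM in WE_16 (SD, n = 5) and 0.553 ± 0.453 CPM in WE_14 (SD, n = 3), a log2 fold change of 4.41 ± 1.13 that did not pass (edgeR adjusted p = 0.0566).

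The next largest rise was that of ENSGALG00000007466 on chromosome 4 (11158706 to 11169798, plus strand). It had 14.2, 8.99, 2.00, 72.5 and 112 CPM in NC_16, against 0.305, 1.74 and 0.532 CPM in NC_14. The groups did not overlap, but NC_16 replicate 3 was close to the highest NC_14 library, while replicates 4 and 5 were far above the rest. The log2 fold change was 5.63 ± 1.34 (SE, edgeR adjusted p = 0.0152), and the call was lost without NC_14 replicate 1 (adjusted p = 0.133) or 3 (adjusted p = 0.0916). GFP-negative cells had 7.32 ± 4.47 CPM in WE_16 (SD, n = 5) and 4.37 ± 1.73 CPM in WE_14 (SD, n = 3), a log2 fold change of 0.75 (edgeR adjusted p = 0.955). The change in GFP-positive cells exceeded that in GFP-negative cells by 4.89 ± 1.54 on the log2 scale (SE), which did not pass over all genes (edgeR unadjusted p = 0.00301, adjusted p = 0.793).

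The largest fall was that of ENSGALG00000004582 on chromosome 15 (6330278 to 6334348, minus strand). It had 0, 0.0580, 0, 0 and 0 CPM in NC_16, a single read over 5 libraries, against 8.45, 58.7 and 0.123 CPM in NC_14. The NC_14 libraries ranged widely, and replicate 3 was nearly as low as NC_16. By reads the level was 1526 times lower in NC_16 (exact binomial 95% interval 273 to 60348). This interval covers counting error only and not the spread between libraries, and NC_14 replicate 2 held 707 of the 821 NC_14 reads. The fitted log2 fold change was -10.26 ± 2.06 (SE, edgeR adjusted p = 0.00433). Without NC_14 replicate 2 the call was lost (adjusted p = 0.0602). In GFP-negative cells this gene fell as well, to 0.150 ± 0.0831 CPM in WE_16 (SD, n = 5), against 225, 130 and 16.7 CPM in WE_14 (log2 fold change -9.69 ± 1.66, edgeR adjusted p = 0.00125). The WE_14 library of the pool named 14_ASH was the lowest of its group, as was its GFP-positive partner.

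The second fall was that of ENSGALG00000000284 on chromosome 27 (6243545 to 6248818, plus strand). It had 0.0633, 0, 0, 0 and 0 CPM in NC_16, again a single read, against 11.4, 20.7 and 0.450 CPM in NC_14. Here too NC_14 replicate 3 was far below the other 2 libraries of its group. By reads the level was 764 times lower in NC_16 (exact binomial 95% interval 136 to 30247, which covers counting error only). The fitted log2 fold change was -9.21 ± 2.03 (SE, edgeR adjusted p = 0.00877). In GFP-positive cells its mean was 26.1 CPM at HH6, 2.11 at HH8, 1.64 at HH10, 2.94 at HH12 and 10.9 at HH14. The log2 fold change in GFP-negative cells was -5.25 ± 1.45 (edgeR adjusted p = 0.0747).

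**Figure D2:**
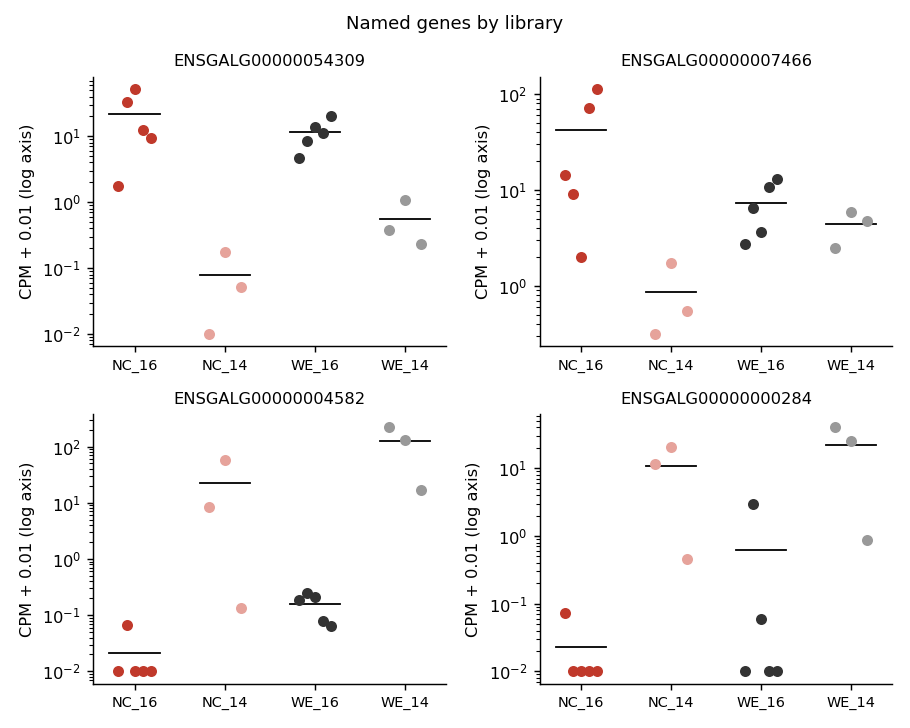
CPM + 0.01 on a log axis for the 4 named genes in each library, by group, with points for libraries and a line for the group mean. The 2 upper genes are above every NC_14 library in all 5 NC_16 libraries, and the 2 lower genes have at most 1 read in any NC_16 library, while for these NC_14 replicate 3 lies below the other NC_14 libraries.

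The conditions on level and overlap were met by 88 of the genes that rose and 154 of those that fell. The 14 largest rises among them had log2 fold changes between 2.74 and 8.27, and the 14 largest falls between -10.26 and -3.57. The median level of the 14 rises was 39.6, 23.6, 16.9, 56.5 and 58.5 CPM in NC_16 replicates 1 to 5, against 2.28, 3.82 and 1.47 CPM in NC_14. For the 14 falls it was 0.316, 0.551, 0, 0.103 and 0 CPM in NC_16, against 15.5, 23.9 and 10.5 CPM in NC_14. The 14 falls came from 9 chromosomes and the 14 rises from 7, and none of either has a single exon. In GFP-negative cells the direction was the same for 12 of the 14 rises and all 14 falls. Of the 14 rises 0 passed there with edgeR (9 at an unadjusted p under 0.05), 1 with DESeq2 and 3 with limma voom, where edgeR called 0.0445% of all tested genes higher. Of the 14 falls 9 passed with edgeR, 9 with DESeq2 and 8 with limma voom, where edgeR called 0.928% of all tested genes lower. With limma voom in place of edgeR, ENSGALG00000054309 alone of the 4 named genes passed (adjusted p = 0.00134), ENSGALG00000007466 having an adjusted p of 0.0547, ENSGALG00000004582 of 0.248 and ENSGALG00000000284 of 0.101. With all 50 libraries in edgeR, ENSGALG00000004582 alone passed (adjusted p = 0.0147), and the adjusted p was 0.0662 for ENSGALG00000054309, 0.0969 for ENSGALG00000007466 and 0.0510 for ENSGALG00000000284.

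Of the 397 called genes, 44 formed 21 runs of tested neighbours called in the same direction, 6 runs higher and 15 lower in NC_16. How many runs would arise from calls placed without regard to position was not worked out. Overlapping genes make up the pair on chromosome 2 described below and a pair that rose on chromosome 7 (17886474 to 17959918). The longest was a run of 4 genes on the plus strand of chromosome 27, between 6243545 and 6290582, which includes ENSGALG00000000284. Its summed level was 0.380, 5.16, 0.477, 0.165 and 0 CPM in NC_16, against 40.8, 135 and 9.25 CPM in NC_14. NC_16 replicate 2 held most of the reads left at HH16, and no NC_16 library reached the lowest of NC_14. The adjusted p-values of the 4 genes ran from 0.00433 to 0.0427 in edgeR.

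On chromosome 2, a pair of overlapping genes on the minus strand between 32588887 and 32628505 showed a like loss. Their summed level was 0.152 ± 0.119 CPM in NC_16 (SD, n = 5) and 31.8 ± 26.2 CPM in NC_14 (SD, n = 3), with single NC_14 libraries at 23.1, 61.2 and 11.1 CPM. Both runs were also low in GFP-negative cells at HH16. The summed level on chromosome 27 was 2.76 ± 5.43 CPM in WE_16 and 90.5 ± 58.8 CPM in WE_14, and 2 of its 4 genes passed as falls there. The chromosome 2 pair had 0.802 ± 1.43 CPM in WE_16 and 43.7 ± 21.6 CPM in WE_14, and 1 of the 2 genes passed. In both runs the GFP-negative library of the pool named HH16_1 was the highest of WE_16, at 12.5 and 3.34 CPM, and the pool named 14_ASH gave the lowest library of NC_14 and of WE_14.

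Among the pairs that rose, 2 neighbours on chromosome 7 between 17833099 and 17841101, on opposite strands, had a summed level of 133, 53.9, 33.8, 113 and 147 CPM in NC_16, against 10.3, 6.80 and 1.80 CPM in NC_14. All NC_16 libraries were above all NC_14 libraries, and both genes passed narrowly (edgeR adjusted p = 0.0467). The pair stood at 30.9 ± 5.28 CPM in WE_16 and 4.60 ± 5.22 CPM in WE_14. Its lowest WE_16 library had 22.7 CPM and its highest WE_14 library 10.5 CPM. The summed level was not tested. Both genes had a log2 fold change above 0 in GFP-negative cells, and edgeR called neither there. A pair on the minus strand of chromosome 1 between 44018283 and 44202174 reached 429 ± 232 CPM in NC_16, against 42.7 ± 37.1 CPM in NC_14. GFP-negative cells already had 251 ± 44.8 CPM of this pair in WE_14 and had 511 ± 218 CPM in WE_16, and no NC_14 library, the highest being at 85.4 CPM, reached the WE_14 libraries. Chromosome 7 held 2 further pairs that rose and also a pair that fell, between 16262309 and 16277643. The pair that fell had 0.0423 ± 0.0583 CPM in NC_16 and 17.3 ± 20.4 CPM in NC_14, and its 2 genes passed as falls in GFP-negative cells too. Chromosome 7 had 14 genes that rose and 9 that fell of 513 tested, or 4.48% against 2.52% over all genes. Chromosome 27 was close to it at 4.40% and chromosome 17 at 3.97%, and no chromosome was tested as a set.

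**Figure D3:**
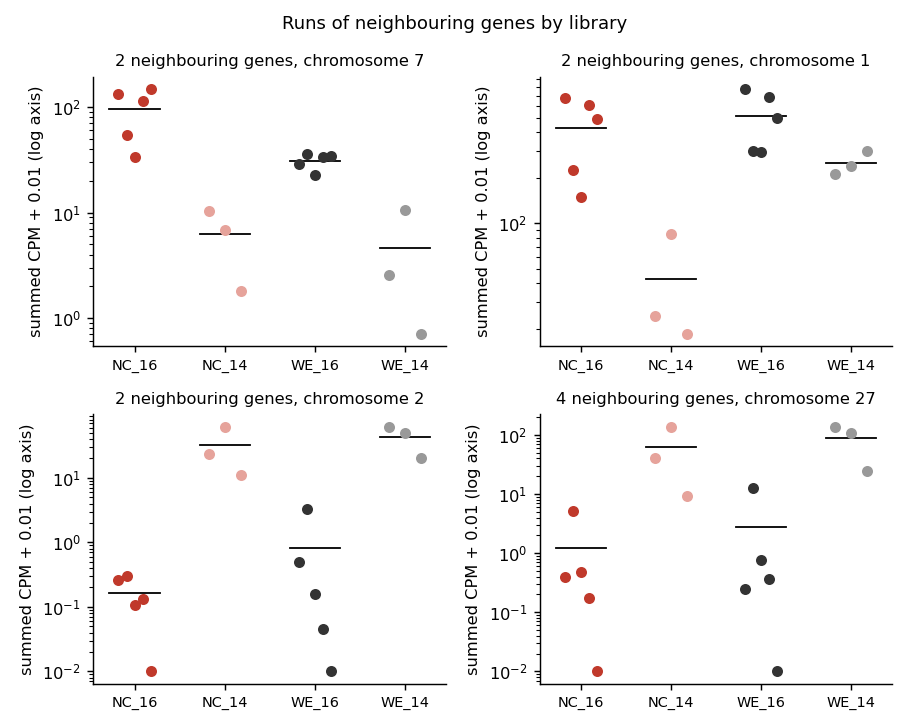
Summed CPM + 0.01 on a log axis for 4 runs of neighbouring called genes in each library, by group, with points for libraries and a line for the group mean. The pairs on chromosomes 7 and 1 are higher in every NC_16 than in any NC_14 library, and the runs on chromosomes 2 and 27 are lower in NC_16 and also low in WE_16.

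Chromosome 33 had 11 genes that fell and 0 that rose of 264 tested in the edgeR fit. The share that fell was 4.17% there, against 3.66% on chromosome 27 and 1.73% of all tested genes. An unadjusted p under 0.05 was found for 39 of the 264, a share close to that over all tested genes (2381 of 15737). DESeq2 called 16 lower and 3 higher there, and limma voom 14 lower and 0 higher. None of the 26 tested mitochondrial genes and none of the 43 tested genes of chromosome W passed with edgeR, DESeq2 or limma voom, and with edgeR 1 and 3 of them had an unadjusted p under 0.05. At 2.52% over all genes, sets this small would hold about 1 called gene or fewer. Chromosome W also ranged from 23.4 to 2201 CPM within NC_16, and whether this spread hid a stage difference was not tested. On chromosome Z 5 genes rose and 7 fell of 703, or 1.71%. By gene structure, 1 of the genes that rose and 5 of those that fell have a single exon, against 4.24% of all tested genes. The median genomic span was 18.4 kb for the genes that rose and 16.7 kb for those that fell, against 12.5 kb for all tested genes.

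Most of the change had the same direction in the GFP-negative cells of the same pools. There 7 genes rose (0.0445% of those tested) and 146 fell (0.928%) from HH14 to HH16, together 0.972% (edgeR, same fit), and with the pool as a block in limma voom 63 rose and 376 fell. This balance too varied with the fit, with 60 higher and 294 lower in DESeq2, 58 and 389 in limma voom, 45 and 276 with the sequencing set as a term, 1 and 53 with all 50 libraries, 29 and 140 without WE_16 replicate 1, and 0 and 49 without WE_14 replicate 1. The log2 fold change in GFP-negative cells was above 0 for 113 of the 124 genes that rose in GFP-positive cells, against 45.4% of all tested genes, and below 0 for 257 of the 273 that fell, against 54.5%. Of the 7 genes that rose in GFP-negative cells 4 were among the 124, and of the 146 that fell 57 were among the 273. These counts varied with the fit, from 0 to 33 for the shared rises and from 7 to 125 for the shared falls. The 2 fractions of a pool share embryos and a sequencing set, so that they are not separate samples of the stage.

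The median log2 fold change in GFP-negative cells was 0.54 for the genes that rose and -0.94 for those that fell. That it is smaller than in GFP-positive cells follows in part from the choice of the genes by the GFP-positive change. The difference between the changes of the 2 fractions was tested over all genes. With edgeR 0 genes passed (600 at an unadjusted p under 0.05), DESeq2 called 12 and limma voom 3. With the pool as a block edgeR called 0 (873 at an unadjusted p under 0.05) and limma voom 43, of which 22 were more positive and 21 more negative in GFP-positive cells. No gene is therefore given as changed in GFP-positive cells alone.

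**Figure D4:**
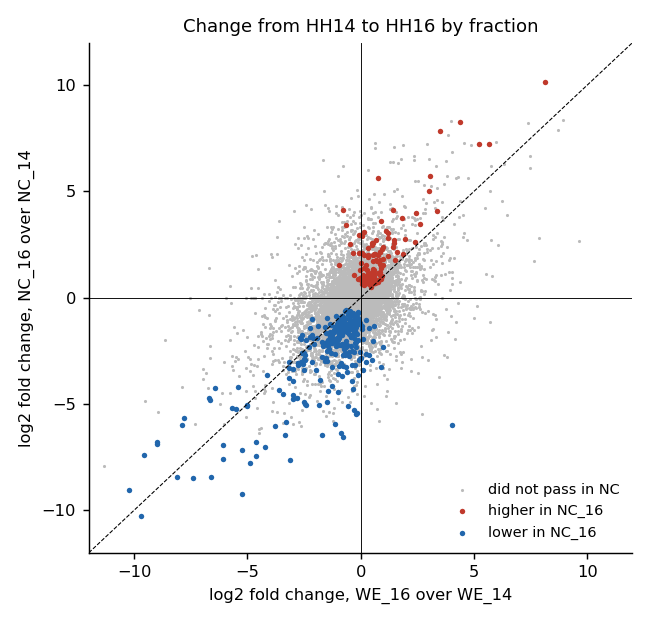
Log2 fold change from HH14 to HH16 in GFP-positive cells (NC_16 over NC_14, vertical) against that in GFP-negative cells (WE_16 over WE_14, horizontal), 1 point per tested gene, with the dashed line at equal change. Of the red points 113 of 124 lie right of 0, and of the blue points 257 of 273 lie left of 0.

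At the stages before HH14, the medians of the called genes in GFP-positive cells were close to those at HH14. The median log2 CPM of the genes that rose was 4.31, 4.19, 4.36, 4.27, 4.35 and 5.85 at HH6, HH8, HH10, HH12, HH14 and HH16. For those that fell it was 4.55, 4.40, 4.64, 4.32, 4.42 and 2.33. By these medians HH16 alone stood apart in both groups of genes, and the genes were chosen by their HH16 and HH14 levels. Single genes were not all steady before HH16. The NC_14 mean lay within the range of the 4 means of HH6 to HH12 for 69 of the 124 genes that rose (55.6%). It did so for 172 of the 273 that fell (63.0%), against 64.2% of all tested genes. The NC_16 mean was above all 4 means of HH6 to HH12 for 120 of the 124 genes that rose (24.9% of all tested genes) and below all 4 for 247 of the 273 that fell (32.7% of all tested genes). In GFP-negative cells the genes that rose had medians of 4.65, 4.96, 5.09, 5.41, 5.31 and 5.78 over the 6 stages. Those that fell had medians of 4.18, 4.23, 4.47, 4.11, 4.34 and 3.17 there.

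Among these genes the fraction with the higher mean differed between the stages. This follows in part from the choice of the genes by their NC_16 and NC_14 levels. Of the genes that rose, 71.0% had a higher mean in NC_16 than in WE_16, against 18.5% with a higher mean in NC_14 than in WE_14. Of those that fell, 10.3% were higher in NC_16 than in WE_16, against 59.0% higher in NC_14 than in WE_14. Over all 15737 tested genes, 6921 were higher in NC_16 than in WE_16 and 7272 higher in NC_14 than in WE_14. The shares use the same NC_16 and NC_14 libraries that chose the genes and carry no test.

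**Figure D5:**
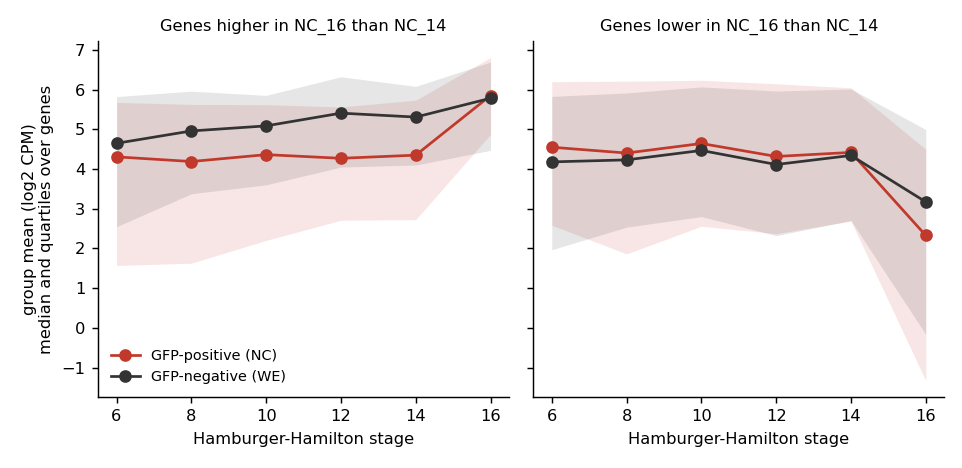
Group means in log2 CPM (vertical) against stage (horizontal) for the genes that rose (left) and fell (right) from NC_14 to NC_16, as the median over genes with the quartiles shaded, in GFP-positive (red) and GFP-negative cells (black). The GFP-positive medians run from 4.19 to 4.36 up to HH14 and stand at 5.85 at HH16 on the left, and run from 4.32 to 4.64 and stand at 2.33 on the right.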

How the data were processed

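Polyadenylated RNA of sorted chicken head cells was sequenced from stranded libraries, per the labels' protocols. The authors deposited raw read counts, in whole numbers for each gene, from featureCounts 1.6.2 with the Ensembl release 99 annotation of GRCg6a, per the file headers. Reads were trimmed with cutadapt 2.10 and aligned with HISAT2 2.1.0, per the submitters' processing notes. No multi-mapping option stands in the header, so near-identical genes are understated.

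The 42 kept libraries (4869937 to 29316689 reads) were fitted together in 12 groups. filterByExpr kept 15737 of 24356 genes. Library sizes were scaled by TMM, and edgeR 4.0.16 in R 4.3.3 gave the test (quasi-likelihood F test, robust, common dispersion 0.219, Benjamini-Hochberg adjusted p under 0.05). Alternatives used DESeq2 1.42.0 and limma 3.58.1. All replicate pairs within NC_16 and within NC_14 differed by more than sampling noise (chi-square per degree of freedom of 20.7 or more). Log2 levels carry a prior count of 1. A count of 3 or fewer reads over a group was treated as the floor.

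The titles give both fractions of a sort 1 pool name, taken as shared embryos. The deviations of such pairs from their group means correlated across genes with r from 0.260 to 0.619 at HH14 and from 0.0803 to 0.448 at HH16, which shared sequencing could also give.

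The groups, lists and rules were chosen with earlier results of these data known. Named genes were the largest rises and falls among called genes that met 2 conditions. They averaged 10 CPM or more in the group with the higher mean, and the libraries of the 2 groups did not overlap. The rule asked for symbols. None of the 24356 identifiers matched the 25635 rows of the reference gene table, so 2 identifiers each way are given and the 35 gene and marker lists were not tested. The 4 runs of neighbours drawn by library were chosen after their values were seen. They were the largest changes each way that summed to 25 CPM or more in the group with the higher mean. The pair that fell on chromosome 7 was below that level.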

Additional observations from a re-analysis of the deposited data

Results flagged for a closer look

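Groups of 5 libraries were screened for a highest or lowest library whose gap to its neighbour exceeds 0.71 of the group's range, in 22 sets of values, and chance flags about 1 in 20 such sets where values are continuous. NC_16 replicate 3 was the low library of its group in detected genes (11128) and in the share of reads from the genes lower in NC_16 (0.465%). NC_16 replicate 2 stood out for ENSGALG00000004582 at 0.0580 CPM, and NC_16 replicate 1 for ENSGALG00000000284 at 0.0633 CPM, each a single read beside 4 libraries without any, which meets the limit by construction and says nothing of these libraries. WE_16 replicate 2, from the pool named HH16_1, stood out for ENSGALG00000000284 at 2.98 CPM, against at most 0.0503 CPM in the other 4 WE_16 libraries. The part of these libraries in the results was not tested beyond the fits without each of them.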

How the results depend on the processing

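For NC_16 against NC_14, 397 genes passed. The count was 826 with DESeq2, 881 with the sequencing set as a term, 66 with the 16 libraries of both fractions, 49 with all 50 libraries, and 0 with the compared groups alone in edgeR (1124 at an unadjusted p under 0.05) or in limma voom (1323). Leaving out 1 library gave 131 to 524. It stayed within 1.5 times of 397 in the other fits, among them DESeq2 size factors (425), no filter (326), 1 CPM in 3 libraries (427) and the pool as a replicate block with a random effect in limma voom (517). For the difference between the fractions, 0 passed, 12 with DESeq2, 3 with limma voom, 1 with the sequencing set as a term, 43 with the pool as a replicate block in limma voom, 0 with it in edgeR, and 0 to 1 without 1 library. In WE_16 against WE_14, 153 passed, 354 with DESeq2, 447 with limma voom, 439 with the replicate block there, 321 with the sequencing set as a term, 54 with all 50 libraries, 25 with the 16 libraries of both fractions, and 49 to 197 without 1 library. The cause of these moves was not tested. The 4 named genes kept their direction in every fit that tested them, and these fits reuse the libraries in which the genes were chosen. Outside the fits without 1 library, the call of ENSGALG00000054309 was lost in 3 and of ENSGALG00000007466 in 6 of 17 fits. That of ENSGALG00000004582 was lost in 2 and of ENSGALG00000000284 in 5 of 14, as neither passed the filter in the 3 fits on the compared groups alone. The fits with the 16 libraries, with limma voom or DESeq2 on the compared groups alone, and without HH16 pools were chosen after the data were seen. Counts of list members were not run, since no identifier could be matched to a list. Genes with 3 or fewer reads in a group are limited by depth.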
